A study of Mus musculus with 16 samples.

Results

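The genes described here encode the DNA replication machinery, the proteins that load, start and run replication forks and copy chromatin behind them. Of 43 genes named by function, 42 were measured, out of 18193 genes with a probe set of their own on the array. A member was any probe set whose only gene symbol in the platform annotation was one of the 43 names, and the probe set with the highest mean over all 16 arrays stood for the gene. Chaf1a had no such probe set and was not analysed here. Each of 16 B16-OVA tumors (4 per group, from 4 mice) gave RNA for 1 array, and signals are on a log2 scale. B16-OVA is a single mouse melanoma line that expresses ovalbumin, and it grew under the skin of C57BL/6-Ly5.1 mice aged 6 to 12 weeks until day 18 after inoculation. In the MEKi+CD40 group mice received GDC-0623, an inhibitor of the kinases MEK1 and MEK2 that activate ERK, at 30 mg/kg daily for about 2 weeks, together with an agonist mIgG1 antibody against CD40, a receptor of antigen-presenting cells. The MEKi group received GDC-0623 with control IgG, the CD40 group received vehicle (MCT) with the agonist antibody, and the control group received vehicle with control IgG. All groups were injected with 1 of the antibodies on treatment days 3, 5 and 7 and 1 day before the tumors were taken. The RNA came from whole tumor tissue, so fewer replicating cells and less of a transcript in each cell cannot be told apart.

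Before a cell copies its DNA, the origin recognition complex (Orc1 to Orc6), Cdc6 and Cdt1 load the ring-shaped MCM helicase on origins, a step called licensing. The kinase Cdc7 with its partner Dbf4, Mcm10, Cdc45 and the GINS complex then turn the loaded rings into active helicases. DNA polymerase alpha with primase makes the primers, polymerases epsilon and delta extend them on the leading and the lagging strand, and the sliding clamp Pcna holds them on the template. Most of these genes are transcribed in late G1 and S phase under E2F factors, which MEK and ERK signalling reaches through cyclin D and the retinoblastoma protein. Their transcripts are used in tumors as a readout of dividing cells.

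Some tumors stood apart in transcripts of other tissues, so these are given before the results. The mean log2 signal of 15 skeletal muscle genes lay 6.91 above the control mean in MEKi+CD40 tumor 1, 4.09 above it in MEKi+CD40 tumor 3 and 2.78 above it in CD40 tumor 3. It was at most 0.85 above it in the other 13 tumors, and controls averaged 4.58, less than the background level of 4.94, which is the 95th percentile of the olfactory receptor probe sets. The mean of 10 melanocyte genes lay between 13.04 and 13.41 in every tumor, so the labelled tumor type carried its markers throughout. For 12 fibroblast genes the mean ranged from 8.51 to 12.11 among MEKi+CD40, from 8.37 to 11.34 among MEKi, from 8.55 to 11.10 among CD40 and from 8.72 to 9.19 among control tumors. Leukocyte genes (12) averaged 9.25 ± 1.20 with MEKi+CD40, 7.55 ± 0.86 with MEKi, 10.10 ± 0.88 with CD40 and 8.85 ± 0.85 with control treatment (SD, n = 4 each). The gap between 3′ and 5′ probe sets, a sign of RNA integrity, was widest in MEKi+CD40 tumor 1. Its Gapdh gap was 0.38, with no other tumor over 0.08, and its Actb gap was 0.91, with no other tumor over 0.44. Of the 42 members, 28 had probe sets of the plain type, 4 (Mcm2, Mcm3, Mcm7 and Gins2) had a type whose probes are shared by several transcripts and 3 (Mcm5, Pold1 and Fen1) a type whose probes may also bind other transcripts.

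The combination of MEKi and anti-CD40 was first set against control treatment. All 42 measured replication genes had a lower mean in MEKi+CD40 tumors than in control tumors, by a median of 1.36 log2 units or 2.56-fold, while the median difference over all 18193 genes was 0.028. The differences spanned -0.31 for Rpa1 to -2.24 for Cdc6, 33 of the 42 genes were lower by more than 2-fold and 12 by more than 3-fold. In 39 genes no MEKi+CD40 tumor reached the lowest control tumor, whereas this separation in the lower direction held for 10.4% of all genes. The 3 genes whose groups overlapped were Pola2, Pold1 and Pold2.

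The fit of these 8 arrays (limma with Benjamini-Hochberg adjustment over 45037 probe sets) called 0 of the 42 genes at an adjusted p under 0.05, with member values of 0.0517 to 0.0956. Only 4 probe sets of the whole array were called in either direction (0.00888%). At an unadjusted p under 0.05 all 42 members were lower, against 12.6% of all probe sets. The call depended on the fit, since 42 members passed with all 16 arrays in 1 fit (adjusted p 0.00498 to 0.0190), 34 with dim probe sets left out, 31 with 1 probe set per gene, 24 with each gene's probe sets averaged and 11 with a trended robust variance. It also depended on single tumors, with 30 members called without control tumor 2, 33 without MEKi+CD40 tumor 1, 32 without MEKi+CD40 tumor 2 and 0 without each of the other 5.

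**Figure D1:**
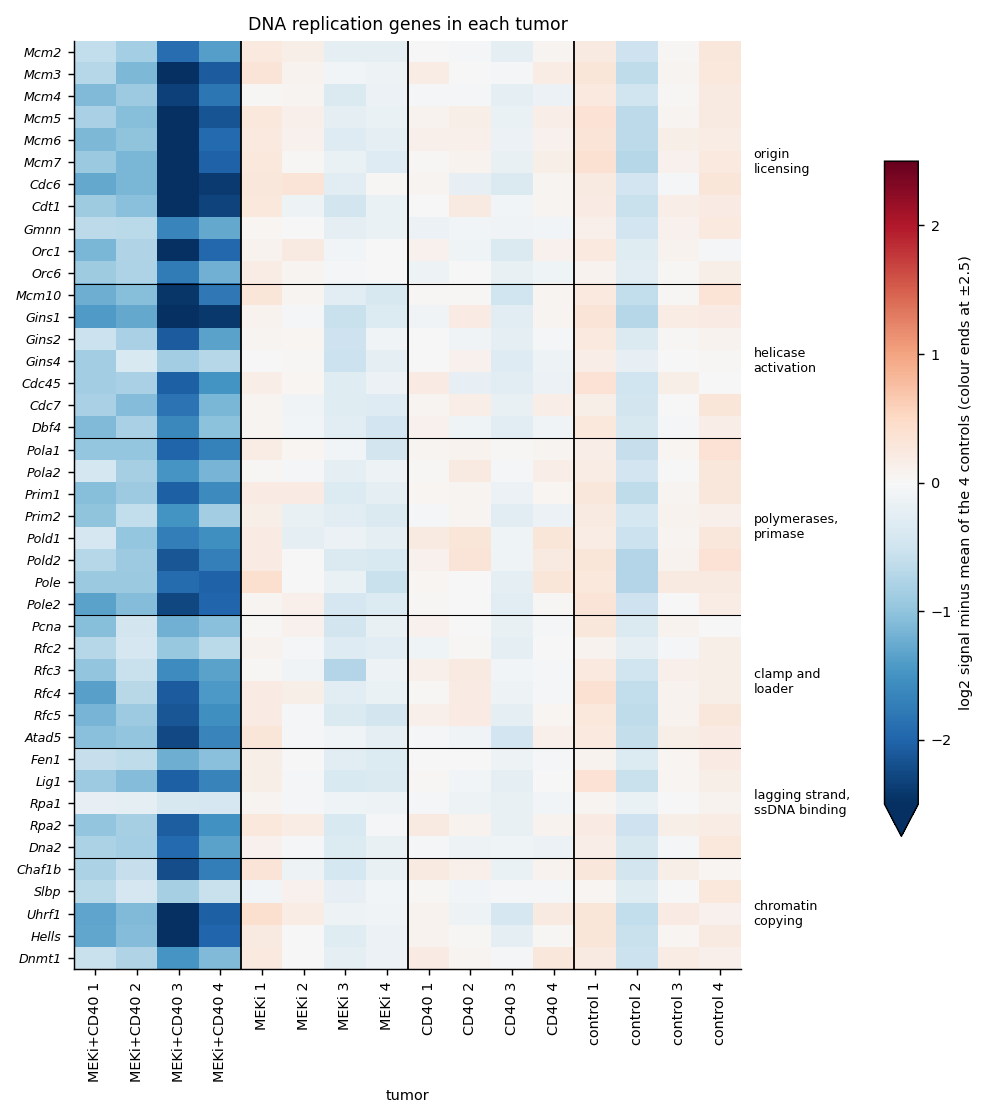
Log2 signal of each of the 42 replication genes (rows, grouped by role) in each of the 16 tumors (columns, by group), minus the mean of the 4 control tumors, with blue for lower and red for higher. The 4 MEKi+CD40 columns are blue in all 42 rows and darkest in tumor 3, while MEKi, CD40 and control columns are pale, with control tumor 2 the bluest of the controls.

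Licensing genes had the largest differences as a group, with a median of -1.65 over 11 genes and no overlap between MEKi+CD40 and control tumors in any of them. Cdc6, the ATPase that brings the helicase to the origin, measured 7.28, 7.42, 4.41 and 6.18 in MEKi+CD40 tumors 1 to 4, 8.85, 8.89, 8.28 and 8.59 in MEKi tumors, 8.64, 8.36, 8.21 and 8.63 in CD40 tumors and 8.78, 8.09, 8.53 and 8.86 in control tumors. Its value in MEKi+CD40 tumor 3 lay below the background level, and the other 3 MEKi+CD40 tumors were also below all 12 remaining tumors. The difference from control was -2.24 ± 0.61 (SE, n = 4 each, limma adjusted p = 0.0806), with a 95% interval of -3.63 to -0.86. Cdt1, which loads the helicase together with Cdc6, had signals of 10.44, 10.29, 8.54 and 9.01 in MEKi+CD40 tumors against 11.53, 10.78, 11.49 and 11.53 in controls, a difference of -1.76 (SE 0.43). Gmnn encodes geminin, the inhibitor of Cdt1, and it was lower along with its target, at 9.10, 9.08, 8.10 and 8.47 in MEKi+CD40 tumors against 9.88, 9.28, 9.87 and 9.99 in controls (difference -1.07, SE 0.25). This was the smallest difference among the 11 licensing members.

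Both measured subunits of the origin recognition complex among the members were lowest in MEKi+CD40 tumors. Orc1, the subunit that comes and goes with the cell cycle, gave 6.40, 6.79, 4.87 and 5.58 in MEKi+CD40 tumors against 7.77, 7.23, 7.63 and 7.51 in control tumors, a difference of -1.63 (SE 0.38). In MEKi+CD40 tumor 3 its signal was below the background level. Orc6, the smallest subunit, had 8.39, 8.51, 7.52 and 8.07 in MEKi+CD40 tumors, 9.46, 9.34, 9.23 and 9.27 in MEKi tumors, 9.15, 9.26, 9.09 and 9.16 in CD40 tumors and 9.37, 9.00, 9.31 and 9.42 in controls. Its spread within groups was small, and its difference of -1.15 (SE 0.21) ranked among the 6 members of lowest p against control (adjusted p = 0.0517). The subunits Orc2, Orc3, Orc4 and Orc5 are not members and were counted with the further replication genes. They differed less from control, by -0.40 (SE 0.12), -0.36 (SE 0.11), -0.36 (SE 0.09) and -0.54 (SE 0.13).

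By the chosen probe sets, the 6 subunits of the MCM ring had differences of like size, between -1.74 for Mcm5 and -1.19 for Mcm2. Other probe sets of Mcm3 alone ranged more widely, from -2.195 (SE 0.44) to -1.10 (SE 0.26). Mcm5 reached 10.42, 10.18, 8.32 and 9.08 in MEKi+CD40 tumors, 11.51, 11.37, 11.01 and 11.07 in MEKi tumors, 11.32, 11.39, 11.08 and 11.41 in CD40 tumors and 11.60, 10.59, 11.30 and 11.47 in control tumors. Its 2 other probe sets were also lower in MEKi+CD40 tumors than in controls, with differences of -2.01 (SE 0.48) and -1.14 (SE 0.25). Mcm2 had 10.91, 10.69, 9.63 and 10.16 in MEKi+CD40 tumors against 11.75, 11.02, 11.56 and 11.81 in controls, so that MEKi+CD40 tumor 1 lay just under control tumor 2. Mcm6 was at 10.36, 10.47, 8.79 and 9.54 in MEKi+CD40 tumors against 11.81, 10.82, 11.63 and 11.66 in controls. The differences of Mcm3, Mcm4, Mcm6 and Mcm7 were -1.67 (SE 0.43), -1.54 (SE 0.32), -1.69 (SE 0.39) and -1.65 (SE 0.38).

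**Figure D2:**
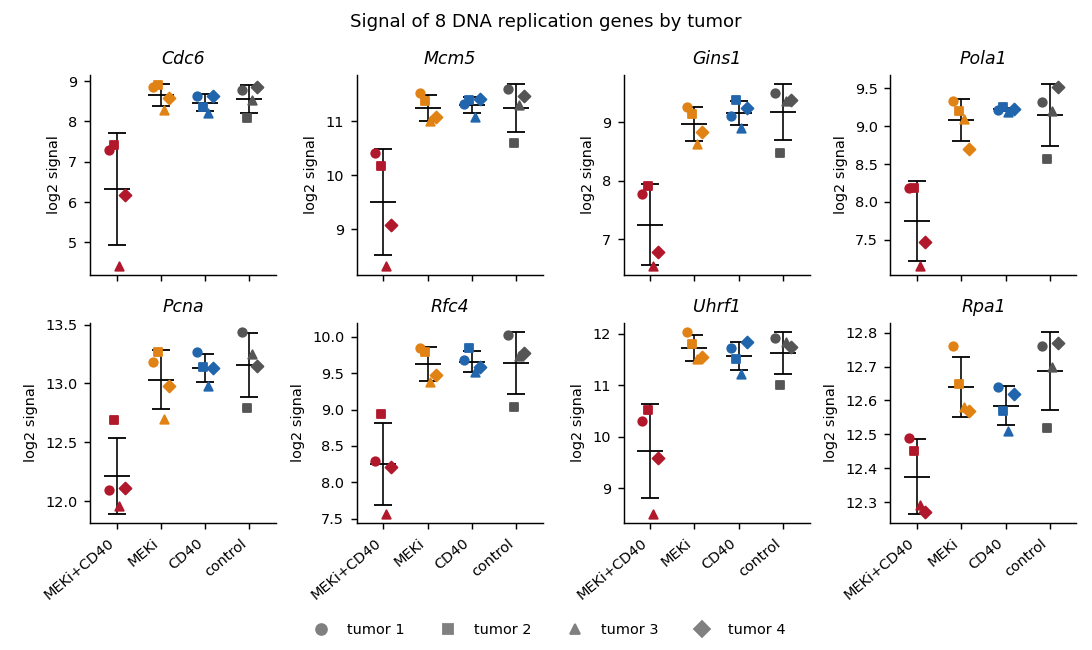
Log2 signal of 8 replication genes by tumor and group (4 tumors each). Marker shapes tell the tumor numbers, bars give group means with SDs, and vertical axes differ between panels. MEKi+CD40 tumors lie below the other groups in each panel, widely for Cdc6, Mcm5, Gins1 and Uhrf1 and by -0.31 against control for Rpa1.

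Promoter sequences are shown for a few members, because E2F factors are known to bind at the promoters of replication genes. RefSeq windows (mouse build GRCm38.p6, 250 bases before to 50 after the gene start) were at hand for 34 of the 42 members. The E2F patterns TTTGGCGC, TTTCGCGC, TTTCCCGC and TTTGCCGC were searched on both strands, where matches may overlap. At least 1 was found in 16 of the 34 members (47.1%), against 2.6% of the 27025 genes with a window. In 10 members a match lay wholly before the start, and 6 members had 2 or more matches. The median difference between MEKi+CD40 and control tumors was -1.66 over the 16 members with a match (range -2.24 to -0.97) and -1.23 over the 18 without (range -1.62 to -0.31). A match is a description of the letters, not a measured binding site, and the difference between members with and without a match was not tested. The 160 bases before the start are given 5′ to 3′ on the gene's strand for 5 genes with a match and for Rpa1, the member with the smallest difference, with E2F patterns in capitals.
Cdc6: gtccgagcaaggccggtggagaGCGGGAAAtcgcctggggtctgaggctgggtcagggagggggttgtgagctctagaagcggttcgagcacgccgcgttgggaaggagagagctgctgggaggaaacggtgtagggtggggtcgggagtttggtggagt
Mcm5: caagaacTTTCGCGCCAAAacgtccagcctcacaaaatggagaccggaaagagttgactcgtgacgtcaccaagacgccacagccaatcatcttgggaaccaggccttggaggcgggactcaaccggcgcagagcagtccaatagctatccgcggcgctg
Mcm6: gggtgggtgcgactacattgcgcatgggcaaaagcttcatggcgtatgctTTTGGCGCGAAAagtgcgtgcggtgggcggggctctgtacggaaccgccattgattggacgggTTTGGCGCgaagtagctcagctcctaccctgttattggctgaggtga
Orc1: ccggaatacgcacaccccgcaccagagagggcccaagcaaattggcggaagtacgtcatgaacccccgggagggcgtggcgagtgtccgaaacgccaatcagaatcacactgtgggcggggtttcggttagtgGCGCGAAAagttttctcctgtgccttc
Hells: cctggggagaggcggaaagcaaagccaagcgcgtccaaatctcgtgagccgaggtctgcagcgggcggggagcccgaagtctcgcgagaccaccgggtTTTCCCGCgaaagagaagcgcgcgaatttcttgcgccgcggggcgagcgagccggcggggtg
Rpa1: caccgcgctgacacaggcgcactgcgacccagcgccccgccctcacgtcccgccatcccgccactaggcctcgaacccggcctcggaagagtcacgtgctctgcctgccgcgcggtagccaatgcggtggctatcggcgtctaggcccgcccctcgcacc

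The Cdc6 sequence lies at chr11:98907991-98908150 on the plus strand, and its TTTCCCGC, on the opposite strand, begins 138 bases before the start. Mcm5 (chr8:75109349-75109508, plus strand) has TTTCGCGC and, on the opposite strand, TTTGGCGC, which overlap, beginning 153 and 149 bases before the start. Mcm6 (chr1:128359706-128359865, minus strand) has such an overlapping pair at 110 and 106 bases and a further TTTGGCGC at 47 bases. Orc1 (chr4:108579294-108579453, plus strand) has TTTCGCGC on the opposite strand at 27 bases and Hells (chr19:38930830-38930989, plus strand) a TTTCCCGC at 62 bases. The Rpa1 stretch (chr11:75348384-75348543, minus strand) holds none of the 4 patterns, nor does the rest of its window. For comparison, the patterns occurred in 3.7% of 27 mitosis genes with a window, 7.69% of 26 nucleotide synthesis genes and 25.0% of 32 other replication genes. TTTGAA, the core of the CHR element known from mitotic genes, was in 20.6% of members, 74.1% of the mitosis genes and 20.2% of all genes, and CCAAT was in 58.8% of members and 41.1% of all genes. The median difference from control in MEKi+CD40 tumors was -1.19 over the 7 members with TTTGAA and -1.43 over the 27 without, -1.39 over the 20 with CCAAT and -1.36 over the 14 without. For GGGCGG, a GC box found in 76.5% of members and 38.2% of all genes, it was -1.38 both over the 26 with and over the 8 without. These differences between members with and without a pattern were not tested either. A gene with several starts counted once if any of its windows matched.

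Helicase activation genes had a median difference of -1.23 over 7 genes between MEKi+CD40 and control tumors, without overlap in any of the 7. Gins1, a subunit of the GINS complex of the active helicase, measured 7.77, 7.91, 6.54 and 6.78 in MEKi+CD40 tumors, 9.27, 9.15, 8.63 and 8.84 in MEKi tumors, 9.10, 9.39, 8.90 and 9.25 in CD40 tumors and 9.50, 8.47, 9.37 and 9.39 in controls. Its difference of -1.93 (SE 0.36, adjusted p = 0.0517) was exceeded only by that of Cdc6, although the complex's other measured subunits differed less, with -1.19 (SE 0.31) for Gins2 and -0.71 (SE 0.13) for Gins4. For Gins4 the signals were 8.53, 9.02, 8.53 and 8.68 in MEKi+CD40 tumors against 9.57, 9.20, 9.40 and 9.43 in controls, with MEKi+CD40 tumors 1 and 3 level. Cdc45, which completes the helicase, had 7.52, 7.58, 6.35 and 6.89 in MEKi+CD40 tumors against 8.74, 7.88, 8.53 and 8.38 in controls. Mcm10, needed to start the assembled helicase, had 7.94, 8.10, 6.72 and 7.37 in MEKi+CD40 tumors against 9.40, 8.53, 9.19 and 9.50 in controls (difference -1.62, SE 0.33). The kinase Cdc7, whose activity triggers helicase activation, gave 7.91, 7.63, 6.87 and 7.57 in MEKi+CD40 tumors against 8.86, 8.27, 8.73 and 9.02 in controls, and its activator Dbf4 gave 9.20, 9.50, 8.69 and 9.27 in MEKi+CD40 tumors against 10.57, 9.91, 10.27 and 10.47 in controls. The kinase and its activator thus differed to a like extent, by -1.23 (SE 0.24) and -1.14 (SE 0.20).

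Genes of the polymerases and primase had a median difference of -1.39 over 8 genes. Pola1, the catalytic subunit of polymerase alpha, measured 8.19, 8.19, 7.15 and 7.47 in MEKi+CD40 tumors, 9.34, 9.20, 9.09 and 8.70 in MEKi tumors, 9.22, 9.25, 9.19 and 9.23 in CD40 tumors and 9.32, 8.57, 9.20 and 9.52 in control tumors. Prim1, the subunit of primase that makes the RNA primer, gave 9.19, 9.36, 8.21 and 8.66 in MEKi+CD40 tumors against 10.54, 9.63, 10.32 and 10.55 in controls. These 2 genes had almost the same difference, -1.40 (SE 0.29) and -1.41 (SE 0.29), while their partners differed less, with -0.98 (SE 0.24) for Pola2 and -0.99 (SE 0.21) for Prim2. Prim2, the large primase subunit, had 8.58, 8.98, 8.10 and 8.73 in MEKi+CD40 tumors against 9.81, 9.16, 9.68 and 9.71 in controls, so that MEKi+CD40 tumor 2 came closest to control tumor 2. Pole, the catalytic subunit of the leading-strand polymerase epsilon, gave 7.97, 7.97, 6.97 and 6.88 in MEKi+CD40 tumors against 9.16, 8.17, 9.13 and 9.13 in controls, a difference of -1.45 (SE 0.33). Pole2, its accessory subunit, had the lowest p of all members against control, with 8.19, 8.43, 7.24 and 7.53 in MEKi+CD40 tumors, 9.59, 9.65, 9.10 and 9.18 in MEKi tumors, 9.54, 9.52, 9.24 and 9.55 in CD40 tumors and 9.85, 9.01, 9.51 and 9.71 in controls (difference -1.67, SE 0.29, adjusted p = 0.0517). The 3 genes whose groups overlapped all belong to this role. Pola2, the accessory subunit of polymerase alpha, had 7.91, 7.51, 6.88 and 7.18 in MEKi+CD40 tumors against 8.53, 7.87, 8.36 and 8.62 in controls, and Pold1, the catalytic subunit of the lagging-strand polymerase delta, had 9.13, 8.58, 7.81 and 8.01 in MEKi+CD40 tumors against 9.73, 9.01, 9.62 and 9.82 in controls. MEKi+CD40 tumor 1 was above control tumor 2 in both, and likewise for Pold2, whose difference was -1.37 (SE 0.36) beside -1.16 (SE 0.30) for Pold1.

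Clamp and clamp loader genes had a median difference of -1.25 over 6 genes. Pcna, the sliding clamp, had 12.09, 12.69, 11.96 and 12.11 in MEKi+CD40 tumors, 13.18, 13.27, 12.70 and 12.98 in MEKi tumors, 13.27, 13.14, 12.98 and 13.13 in CD40 tumors and 13.44, 12.79, 13.25 and 13.15 in controls. MEKi+CD40 tumor 2 came close to control tumor 2, and the difference of the means was -0.95 (SE 0.19). The loader subunits Rfc2, Rfc3, Rfc4 and Rfc5, which open the clamp and close it around DNA, differed by -0.69 (SE 0.13), -1.12 (SE 0.24), -1.39 (SE 0.30) and -1.44 (SE 0.30). Rfc4 measured 8.29, 8.94, 7.56 and 8.21 in MEKi+CD40 tumors against 10.03, 9.03, 9.73 and 9.78 in controls, with tumor 2 the highest of the combination and lowest of the controls. Rfc2 measured 9.97, 10.27, 9.73 and 10.02 in MEKi+CD40 tumors against 10.78, 10.47, 10.65 and 10.84 in controls, a narrow spread that placed it among the 6 lowest p despite its small difference. Rfc3 measured 8.00, 8.43, 7.41 and 7.66 in MEKi+CD40 tumors against 9.23, 8.49, 9.11 and 9.13 in controls, and there the groups only just separated. Atad5, which takes Pcna off DNA after replication, had 7.48, 7.54, 6.28 and 6.87 in MEKi+CD40 tumors against 8.77, 7.94, 8.68 and 8.73 in controls and the largest difference of the group, -1.49 (SE 0.31).

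Genes for the lagging strand and for single-strand binding had a median difference of -1.23 over 5 genes, and 2 subunits of 1 complex lay far apart. Rpa1, the large subunit of the replication protein A that coats single-stranded DNA and also serves repair, had 12.49, 12.45, 12.29 and 12.27 in MEKi+CD40 tumors, 12.76, 12.65, 12.58 and 12.57 in MEKi tumors, 12.64, 12.57, 12.51 and 12.62 in CD40 tumors and 12.76, 12.52, 12.70 and 12.77 in controls. Its difference of -0.31 (SE 0.09, 1.24-fold) was the smallest of the 42 genes, while the other probe set of Rpa1 differed by -0.59 (SE 0.14). Rpa2, the middle subunit, had 8.40, 8.56, 7.34 and 7.88 in MEKi+CD40 tumors against 9.59, 8.88, 9.53 and 9.57 in controls, a difference of -1.35 (SE 0.28) or 2.54-fold. The flap nuclease Fen1, which trims Okazaki fragments, had 10.48, 10.41, 9.82 and 10.01 in MEKi+CD40 tumors against 11.14, 10.70, 11.10 and 11.25 in controls (-0.87, SE 0.18), and its other probe set differed by -1.36 (SE 0.25). DNA ligase 1 (Lig1), which joins the fragments, had 10.06, 9.89, 8.94 and 9.31 in MEKi+CD40 tumors against 11.33, 10.43, 11.03 and 11.12 in controls (-1.43, SE 0.28). The nuclease and helicase Dna2, which acts on long flaps, had 8.36, 8.30, 7.20 and 7.80 in MEKi+CD40 tumors against 9.32, 8.75, 9.10 and 9.41 in controls (-1.23, SE 0.27).

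Genes that copy chromatin and DNA methylation behind the fork had a median difference of -1.33 over 5 measured genes. Uhrf1, which finds hemimethylated DNA and recruits Dnmt1, had 10.31, 10.51, 8.49 and 9.59 in MEKi+CD40 tumors, 12.03, 11.80, 11.50 and 11.54 in MEKi tumors, 11.72, 11.50, 11.21 and 11.84 in CD40 tumors and 11.92, 11.01, 11.83 and 11.73 in controls. Its difference of -1.90 (SE 0.43) came after those of Cdc6 and Gins1 in size, at 3.73-fold, against -0.97 (SE 0.23) for Dnmt1, the maintenance methyltransferase itself. Dnmt1 had 10.63, 10.44, 9.72 and 10.09 in MEKi+CD40 tumors against 11.42, 10.66, 11.37 and 11.31 in controls, where tumor 1 of the combination and tumor 2 of the controls nearly met. Hells, a chromatin remodeller also needed for DNA methylation, had 8.57, 8.78, 6.99 and 7.88 in MEKi+CD40 tumors against 10.16, 9.30, 9.92 and 10.08 in controls (-1.81, SE 0.38). The histone chaperone subunit Chaf1b, which places new histones behind the clamp, had 8.15, 8.37, 6.73 and 7.22 in MEKi+CD40 tumors against 9.22, 8.48, 9.09 and 8.99 in controls (-1.33, SE 0.36). Slbp, which binds the stem-loop of histone mRNAs, had 10.32, 10.57, 10.15 and 10.44 in MEKi+CD40 tumors against 11.03, 10.69, 10.98 and 11.25 in controls, and its difference was among the smallest (-0.62, SE 0.14).

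The 49 further probe sets of 33 members were checked against these values. Of them, 48 were lower and 1 higher in MEKi+CD40 tumors than in controls, with a median of -0.93, and 0 had the opposite direction to the chosen probe set at an unadjusted p under 0.05 in any comparison. Across the 42 members the size of the difference had little relation to the signal in controls (Pearson's r = 0.20 across genes, which are not independent replicates). With the range over the control tumors r was -0.71, so members that varied more among controls had larger decreases.

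The single treatments were set against the same 4 control tumors. With GDC-0623 alone the median difference of the 42 genes was -0.088, with 36 genes below and 6 above control. On leaving out single tumors it ranged from -0.25 without control tumor 2 (42 genes below) to -0.011 without control tumor 4 (24 genes below). Of the 42 genes 0 were called by limma (0% of all probe sets were called, adjusted p of members 0.806 to 1) or passed an unadjusted p under 0.05 (3.32% of all probe sets did as lower). Of the 42, 0 separated from controls as lower (2.11% of all genes did), and none of the 95% intervals reached a 2-fold decrease, the lowest bound being -0.73 for Gins1 and the highest 0.55 for Uhrf1. The 6 members of lowest p were Gins4 (-0.20, SE 0.13), Dbf4 (-0.19, SE 0.16), Rfc3 (-0.23, SE 0.20), Rfc2 (-0.13, SE 0.12), Prim2 (-0.17, SE 0.16) and Cdc7 (-0.16, SE 0.16). Rfc3, for example, had 9.01, 8.91, 8.26 and 8.87 in MEKi tumors and 9.23, 8.49, 9.11 and 9.13 in controls, where tumor 3 of MEKi and tumor 2 of the controls were low. Gins4 had 9.39, 9.42, 8.86 and 9.15 in MEKi tumors against 9.57, 9.20, 9.40 and 9.43 in controls, and Dbf4 had 10.38, 10.23, 10.03 and 9.82 in MEKi tumors against 10.57, 9.91, 10.27 and 10.47 in controls. In each of these genes the 2 groups overlapped, with MEKi tumors 3 and 4 the lower ones of their group.

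With the CD40 antibody alone the median difference was -0.028, with 25 genes below and 17 above control. This split rested on single tumors, since the median was -0.18 without control tumor 2 (41 genes below) and 0.060 without control tumor 1 (15 genes below), and it was also above 0 without control tumor 4 or CD40 tumor 3. By limma 0 members were called (0% of all probe sets, adjusted p of members 0.754 to 0.998), 0 were lower at an unadjusted p under 0.05 (5.23% of all probe sets) and 0 separated from controls as lower (3.95% of all genes). The 95% intervals stayed within -0.58 for Mcm10 and 0.64 for Pold2. The members of lowest p were Rpa1 (-0.10, SE 0.08), Orc6 (-0.11, SE 0.10), Pold1 (0.18, SE 0.18), Dna2 (-0.11, SE 0.13), Dnmt1 (0.13, SE 0.17) and Gins4 (-0.09, SE 0.11). Pold1 had 9.77, 9.84, 9.44 and 9.85 in CD40 tumors and 9.73, 9.01, 9.62 and 9.82 in controls, and Dnmt1 had 11.40, 11.26, 11.14 and 11.48 in CD40 tumors and 11.42, 10.66, 11.37 and 11.31 in controls. In both genes control tumor 2 was the lowest of the 8 tumors, and without it the Dnmt1 difference changed sign to -0.047 (adjusted p = 0.945).

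**Figure D3:**
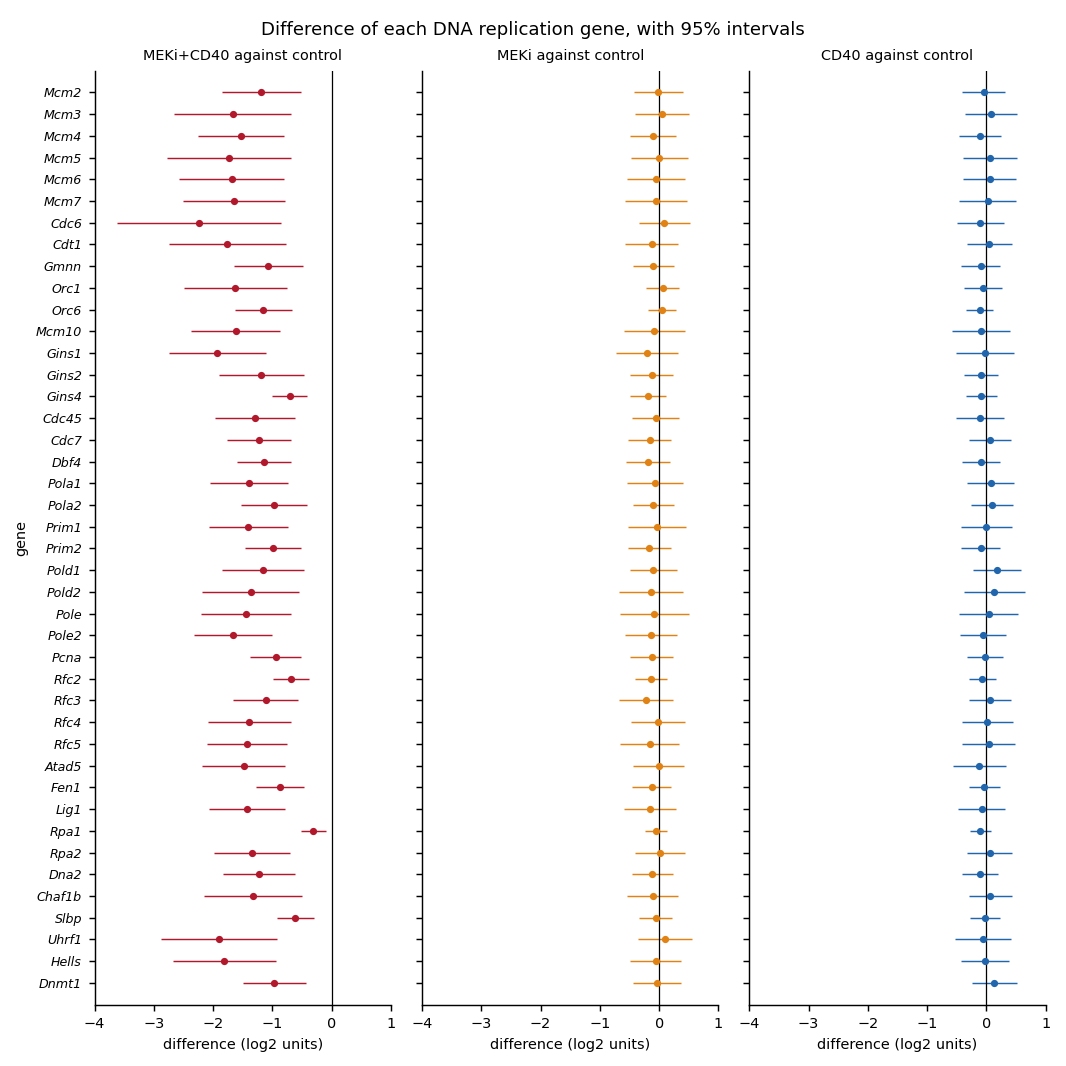
Difference of each replication gene from control in log2 units (horizontal axis, point) with its 95% interval (line), for MEKi+CD40, MEKi and CD40 tumors in 3 panels that share the same 4 control tumors. All 42 MEKi+CD40 intervals lie below 0, down to -3.63 for Cdc6, and all 42 intervals of each single treatment include 0.

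Each addition was then tested on its own. Adding the antibody to GDC-0623 (MEKi+CD40 against MEKi tumors) gave a median of -1.25 over the 42 genes, 40 of which separated the groups in the lower direction (8.99% of all genes did), all except Gins4 and Rfc3. The same MEKi+CD40 tumors enter this comparison, the next one and that with control. Limma called 3 of them, against 0.624% of all probe sets called lower. These were Orc6 (-1.20, SE 0.20, adjusted p = 0.0496), Pole2 (-1.53, SE 0.27, adjusted p = 0.0496) and Atad5 (-1.48, SE 0.27, adjusted p = 0.04999, just under the threshold). Atad5 measured 7.48, 7.54, 6.28 and 6.87 in MEKi+CD40 tumors against 8.83, 8.51, 8.45 and 8.29 in MEKi tumors. Gins1 (-1.72), Prim1 (-1.36) and Rfc4 (-1.38) followed at adjusted p of 0.0501, 0.0509 and 0.051, and all members lay between 0.0496 and 0.124. As against control, the count turned on the fit and on single tumors, from 42 with all 16 arrays in 1 fit to 0 with median centring or cyclic loess, and it was 27 without MEKi+CD40 tumor 1, 25 without MEKi+CD40 tumor 2 and 0 without any other 1 of the 8 tumors.

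Adding GDC-0623 to the antibody (MEKi+CD40 against CD40 tumors) gave the clearest separation, with no overlap in any of the 42 genes (8.2% of all genes did not overlap in the lower direction) and a median of -1.38. Limma called 36 of the 42 as lower, against 2.46% of all probe sets. By role they were 8 of 11 licensing genes, 6 of 7 helicase activation genes, all 8 polymerase and primase genes, all 6 clamp and loader genes, 4 of 5 lagging-strand genes and 4 of 5 chromatin genes. Pole2 fell by 1.62 (SE 0.25, adjusted p = 0.0275), Pola1 fell by 1.47 (SE 0.23, adjusted p = 0.0278), Gins1 fell by 1.91 (SE 0.31, adjusted p = 0.0286), Cdc7 fell by 1.28 (SE 0.21), Dbf4 fell by 1.05 (SE 0.17) and Slbp fell by 0.59 (SE 0.10). Slbp had 10.32, 10.57, 10.15 and 10.44 in MEKi+CD40 tumors, against 11.01, 10.92, 10.96 and 10.95 in CD40 tumors, whose 4 values lay close together. The 6 members not called were Cdc6 (-2.14, SE 0.60, adjusted p = 0.0819), Mcm5 (-1.80, adjusted p = 0.0516), Orc1 (-1.56, adjusted p = 0.0564), Chaf1b (-1.40, adjusted p = 0.0572), Gins2 (-1.09, adjusted p = 0.0765) and Rpa1 (-0.21, adjusted p = 0.176). Except for Rpa1 these had a wide spread in MEKi+CD40 tumors, with SDs from 0.68 for Gins2 to 1.39 for Cdc6, against a median of 0.56 over members. The count was 40 and 39 without MEKi+CD40 tumors 1 and 2, 9 without CD40 tumor 3, and 0 without CD40 tumor 1, 2 or 4 or without MEKi+CD40 tumor 3 or 4, while the median stayed between -1.55 and -1.15.

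Whether both agents together differed from the sum of each alone was tested as an interaction on all 16 arrays, that is, the difference of MEKi+CD40 from MEKi tumors less that of CD40 from control tumors. It was negative in all 42 genes with a median of -1.30, and 40 genes had an unadjusted p under 0.05 (7.44% of all probe sets did in the negative direction), all except Gins4 and Rpa1. Limma called 0 members at an adjusted p under 0.05 (0.0981 to 0.565) and 0% of all probe sets. Orc6 (-1.09, SE 0.23), Pole2 (-1.48, SE 0.34), Pola1 (-1.40, SE 0.33), Rpa2 (-1.42, SE 0.34), Gins1 (-1.70, SE 0.42) and Hells (-1.73, SE 0.43) had the lowest p. Without MEKi+CD40 tumor 2, 13 members were called, and without any other tumor 0.

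**Figure D4:**
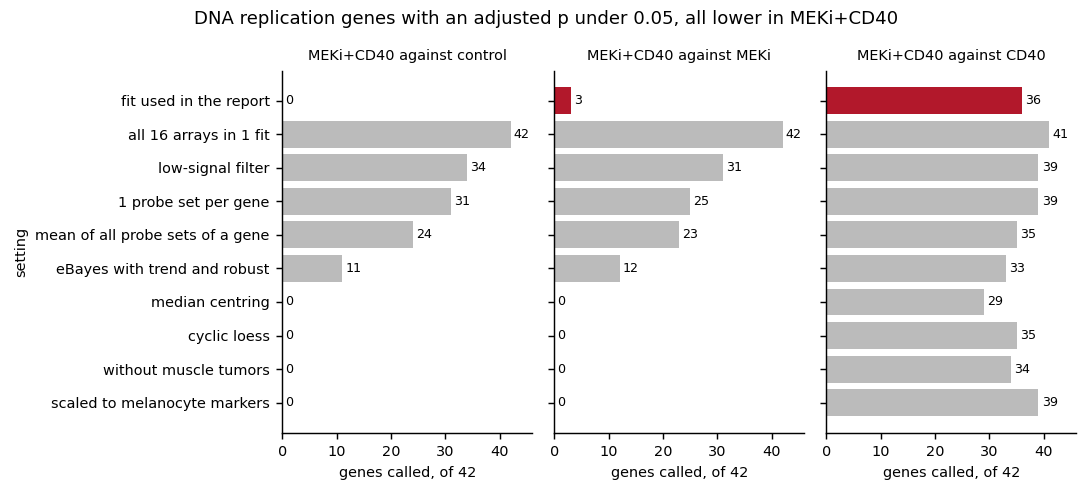
Number of the 42 replication genes with an adjusted p under 0.05 (horizontal axis, bars from 0, red for the fit used in the report) under each setting (rows), for MEKi+CD40 against control, MEKi and CD40. The count ran between 0 and 42 against control and MEKi, and was 29 or more against CD40 in the settings shown. Fits without single tumors, in which the count against CD40 ran between 0 and 40, are not shown. Also not shown is the fit with the replicate number as a block, which called 0 against CD40.

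The size of the difference varied between MEKi+CD40 tumors in the same way for most members. Relative to the control mean, the median of the 42 genes was -0.92 in MEKi+CD40 tumor 1, -0.87 in tumor 2, -2.04 in tumor 3 and -1.53 in tumor 4. Tumor 3 was the lowest of the 4 in 39 genes. Among controls, tumor 2 was the lowest in all 42 genes, and the mean of the members there was 9.51, against 10.08 to 10.25 in the other 3 controls. CD40 tumor 3 was the lowest of its group in 39 genes, and MEKi tumors 3 and 4 were the lowest of theirs in 28 and 14. The median SD over members was 0.56 in MEKi+CD40, 0.24 in MEKi, 0.15 in CD40 and 0.36 in control tumors. All 42 genes were below the lowest control in MEKi+CD40 tumors 2, 3 and 4 and 39 in tumor 1, while this held for at most 5 genes in any MEKi or CD40 tumor.

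Markers of other tissues varied between the same tumors. Skeletal muscle means of MEKi+CD40 tumors 1 to 4 lay 6.91, 0.035, 4.09 and 0.004 above the control mean. The median differences of the replication genes in these tumors were -0.92, -0.87, -2.04 and -1.53 in the same order. With the 3 muscle-rich tumors left out, an alternative chosen after seeing the data, the median was -1.20 against control, -1.13 against MEKi, -1.30 against CD40 and -1.19 for the interaction, with 0, 0, 34 and 0 members called. With every array scaled to the melanocyte genes, also chosen after seeing the data, 0 members were called against control and against MEKi and 39 against CD40. Leukocyte means lay above the control mean in MEKi+CD40 tumors 1 to 3 and 1.17 below it in tumor 4. Fibroblast means lay 3.11 and 1.76 above the control mean in MEKi+CD40 tumors 1 and 3, 2.33 in MEKi tumor 3 and 2.09 in CD40 tumor 3. They were at most 0.46 above it in the other tumors. MEKi tumor 3 stayed in the fits without the muscle-rich tumors. The part of skeletal muscle, leukocytes, fibroblasts and RNA integrity in the replication values was not tested.

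**Figure D5:**
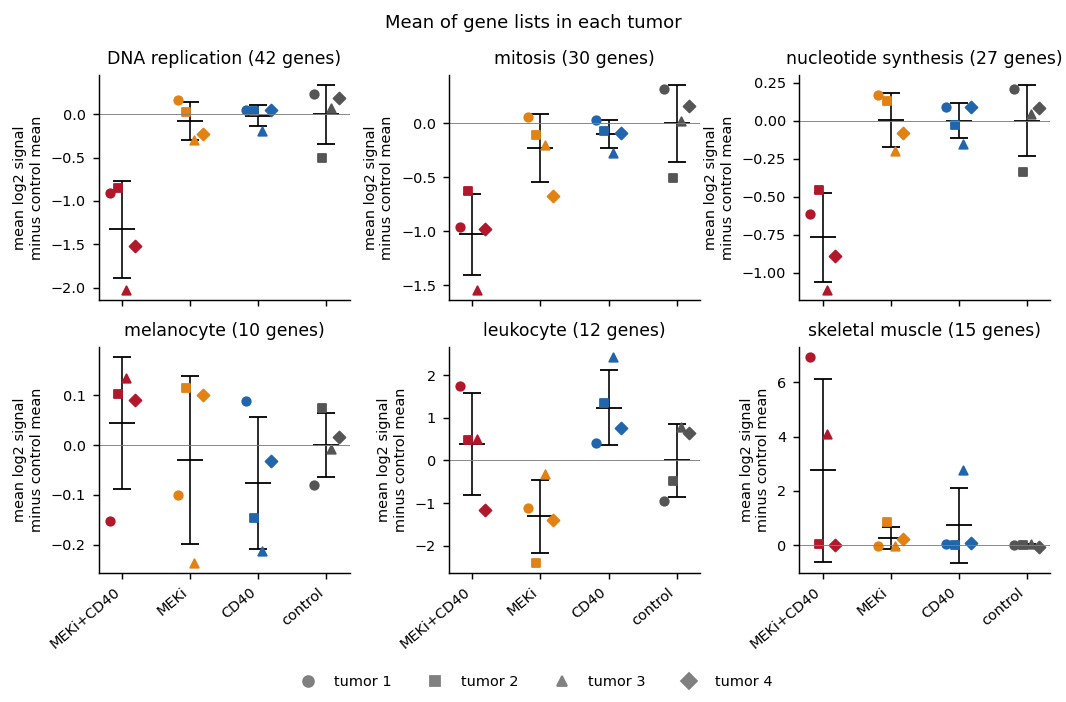
Log2 signal averaged over each of 6 gene lists, by tumor and group, relative to the mean of controls. Shapes, bars (mean and SD, n = 4) and separate vertical axes are as in the plot of 8 genes. The group means of DNA replication, mitosis and nucleotide synthesis genes are lowest in MEKi+CD40 tumors, the melanocyte mean varies little, and skeletal muscle is high in MEKi+CD40 tumors 1 and 3 and CD40 tumor 3.

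Other genes of replication had smaller differences on the whole. Of 38 further replication genes measured, 37 were lower in MEKi+CD40 tumors than in controls, with a median of -0.71. At an unadjusted p under 0.05, 33 were lower (12.6% of all probe sets were), while 0 were called (0.00888% of all probe sets). Gins3, the fourth GINS subunit, differed by -0.75 (SE 0.10, adjusted p = 0.0517), Ticrr, which helps load Cdc45, by -1.22 (SE 0.20), Mtbp, its partner, by -0.86 (SE 0.15) and the histone chaperone Nasp by -1.41 (SE 0.26). Against MEKi tumors 37 of the 38 were lower in MEKi+CD40 tumors, and limma called 4 as lower (0.624% of all probe sets). These were Mtbp (-0.84, SE 0.14) and Rif1, a regulator of replication timing (-0.81, SE 0.14). The others were the helicase Recql4 (-1.02, SE 0.18) and Mcmbp, which binds the MCM ring (-0.59, SE 0.10), each of the 4 at an adjusted p of 0.0496. Against CD40 tumors 37 of the 38 were again lower, and 18 were called as lower (2.46% of all probe sets). The polymerase delta subunit Pold4 was called as higher (0.58), as 2.28% of all probe sets were. Pold4 was also the only one above 0 against control (0.62). Among those called as lower were Pold3, a further delta subunit (-0.69, SE 0.10), Mcmbp (-0.71, SE 0.11), Topbp1, which acts in helicase activation and checkpoint signalling (-1.21, SE 0.20), and Nasp (-1.39, SE 0.24).

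Gene lists next to replication in the cell cycle gave the following. The median of 30 mitosis genes was -1.05 in MEKi+CD40 tumors against control, -0.23 in MEKi and -0.10 in CD40 tumors, and that of 27 nucleotide synthesis genes was -0.77, -0.01 and -0.03 in the same order. All 30 mitosis genes and 26 of 27 nucleotide synthesis genes had lower means in MEKi+CD40 tumors than in CD40 tumors, and the same counts held against MEKi tumors. Against CD40 tumors limma called 23 and 13 of them as lower, beside 36 of 42 replication genes (2.46% of all probe sets). Against MEKi tumors it called 0 and 2, beside 3 of 42 (0.624% of all probe sets). At an unadjusted p under 0.05, 28 mitosis genes, 24 nucleotide synthesis genes and all 42 replication genes were lower in MEKi+CD40 than in MEKi tumors (11.8% of all probe sets were). The difference between lists was not tested.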

How the data were processed

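Total RNA (200 ng) from pieces of 16 tumors was labelled with a 3′ IVT kit and hybridised to Affymetrix mouse arrays, and the log2 values that the authors deposited came from robust multichip averaging (RMA) in Chipster. RMA adjusts arrays to a common distribution, so differences are relative to the other transcripts of a tumor. RMA version: not given in the sources used here. These deposited log2 values were taken unchanged, with 64 Affymetrix control probe sets left out. Groups came from the labels. Pairs of groups were compared by limma (lmFit, eBayes) on the 8 arrays concerned, and the interaction on all 16, with version 3.58.1 (R 4.3.3) and Benjamini-Hochberg adjustment over 45037 probe sets, and a gene was called at an adjusted p under 0.05. The number of arrays limits the precision, and over all probe sets, differences of 2 groups had a median SE of 0.103 to 0.119. The fit was tested on simulated data with known differences. The background level was taken from 44 olfactory receptor probe sets, and 39.7% of probe sets lay below it. Named were 25 members fixed by name and up to 6 members of lowest p in each comparison. For further replication genes, up to 4 of lowest p were named, and Orc2 to Orc5 and Pold4 besides. Promoters came from RefSeq (GRCm38.p6). The members and lists were chosen with earlier results of these data known. The alternatives were all arrays in 1 fit, blocking on the replicate number, a low-signal filter (above background on at least 4 arrays), 1 probe set per gene, averaging a gene's probe sets, median centring, cyclic loess, a trended robust variance and leaving out each tumor. Fits without the muscle-rich tumors and with scaling to melanocyte genes were added after seeing the data. Plots used matplotlib 3.10.9, numpy 2.4.6 and pandas 2.3.3 under Python 3.11.15.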

Additional observations from a re-analysis of the deposited data

Results flagged for a closer look

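In 12 of the 168 groups of 4 tumors examined (42 genes in 4 groups), 1 tumor lay far from the other 3 by Dixon's criterion, which chance alone would meet in about 1 of 20 groups (8.4 here). All 12 values were low, 4 in CD40 tumor 3, 8 in control tumor 2 and 0 in MEKi+CD40 and MEKi tumors. In CD40 tumor 3 they were those of Mcm6 (11.34), Mcm10 (8.66), Prim1 (10.11) and Pole2 (9.24). In control tumor 2 they were those of Gins1 (8.47), Cdt1 (10.78), Gmnn (9.28), Pole (8.17), Rfc3 (8.49), Rpa2 (8.88), Atad5 (7.94) and Dnmt1 (10.66). Control tumor 2 was the lowest control in all 42 genes, so these 8 genes repeat 1 pattern of 1 tumor. Its 3′ to 5′ gaps were no wider than those of the other controls. CD40 tumor 3 was also the CD40 tumor with muscle and fibroblast transcripts, whose part in its low replication values was not tested.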

How the results depend on the processing

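The median difference of the 42 replication genes was computed with probe sets averaged, median centring, cyclic loess, scaling to melanocyte genes and without single or the muscle-rich tumors, and it kept its direction under each of these in the comparisons that include MEKi+CD40. On leaving out each tumor it ranged from -1.56 to -1.11 against control, -1.43 to -1.02 against MEKi, -1.55 to -1.15 against CD40 and -1.50 to -1.06 for the interaction. For the single treatments it lay near 0, from -0.25 to -0.011 for MEKi and from -0.18 to 0.060 for CD40 against control, where it was 0.015 with cyclic loess and 0.048 with scaling to melanocyte genes. The count of genes called did not keep its size. Against control (0 called) it was 42 with all 16 arrays in 1 fit, 34 with the low-signal filter, 31 with 1 probe set per gene, 24 with the mean of all probe sets, 11 with a trended robust variance and 0 with the other alternatives, and 0 to 33 on leaving out each tumor. Against MEKi (3 called) it was 42, 31, 25, 23 and 12 in the same order, 0 with median centring, cyclic loess, scaling to melanocyte genes or without the muscle-rich tumors, and 0 to 27 on leaving out each tumor. Against CD40 (36 called) it was 29 to 41 apart from the block, and 0 to 40 on leaving out each tumor. For the interaction (0 called) it was 13 without MEKi+CD40 tumor 2 and 0 otherwise. With the replicate number as a block it was 0 against control, 0 against MEKi and 0 against CD40. The labels share the numbers but do not say that they pair the tumors, 7 of 24 like-numbered pairs correlated above 0.1, and 4 of 16 tumors correlated best with their own number. The cause of these shifts was not tested. The Dnmt1 difference between CD40 and control tumors ranged from -0.047 to 0.21 on leaving out each tumor, reversing only without control tumor 2. With scaling to melanocyte genes the median of all genes was -0.12 for the interaction, against 0.028 in the fit used here. In the comparisons of 2 groups it then lay between -0.077 and 0.048. With 4 arrays per group, adjusted p near the threshold decide these counts.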
